A study of Mus musculus with 10 samples.

Results

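The distribution of mRNA between polyribosomes and the light end of a sucrose gradient was examined in serum-starved mouse embryonic fibroblasts. It rests on 4 of the 10 arrays of the series, chosen by their labels and by no measured value: 2 arrays of polyribosome-associated RNA and 2 of undertranslated RNA. The cells were primary cultures from embryos of age e14.5, with the genotype C57/BLACK6, ATF1 +/-, which every group of the series shares. They were grown in 10% dialyzed fetal bovine serum to near confluency, starved for 48 h in 1% serum and held for 2 h more in fresh medium with 1% serum. In both pools, replicate 2 received 4-thiouridine at 200 uM and 3H-cytidine during those 2 h, and replicate 1 received neither, so that replicate and nucleoside labelling cannot be told apart. Cycloheximide, which holds ribosomes on mRNA, was added at 100 ug/ml for 30 min before lysis. RNA with no ribosome, with a ribosomal subunit or with 1 ribosome was called undertranslated by the submitters, and RNA with at least 2 ribosomes polyribosome-associated. The serum-treated gradient arrays, 2 per pool, differ in that the last 2 h were in 10% serum. The single starved cytoplasmic array came from cells without cycloheximide, and no gradient was run for it.

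Ribosomes that follow each other along an mRNA make a polyribosome, which sinks deeper in sucrose than a free mRNA or an mRNA with a lone ribosome, so the share of a transcript in the deep fractions is a common measure of how actively it is translated. An mRNA with a short reading frame has room for few ribosomes, and noncoding RNAs are mostly expected in the light fractions. Withdrawal of serum lowers growth factor signalling through the mTOR kinase, on which mRNAs with a 5' terminal oligopyrimidine tract (TOP mRNAs) depend. These encode ribosomal proteins and several translation factors.

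The 2 pools gave arrays of very different brightness. The median deposited intensity was 7.6 and 8.8 on the undertranslated arrays and 54.2 and 45.6 on the polyribosome arrays, and 53.3% and 53.5% against 69.7% and 68% of probe sets lay above background. Background was set on each array at the brightest of the 19 probe sets for bacterial or yeast transcripts not spiked in. The ratio of the 3' to the 5' control probe set of Actb, which rises when RNA is degraded or incompletely copied, was 137 and 61.4 in undertranslated RNA and 13.4 and 11.5 in polyribosome RNA. The 5' Actb signal was 1.5 and 6.6 on the undertranslated arrays, not above their backgrounds of 6.7 and 7.7. The Actb ratios of undertranslated RNA thus have no firm size. On the polyribosome arrays the 5' Actb signal was 259.8 and 303.7. For Gapdh the ratio was 5.64 and 6.81 against 14.4 and 6.24, which did not separate the pools. The part of brightness and of transcript integrity in the differences below was not tested. Each array carries equal fractions combined from biological and technical replicates, so the p-values reflect how combined samples vary and not how single cultures vary. A polyribosome array and the undertranslated array of the same number may come from the same cultures.

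**Figure D1:**
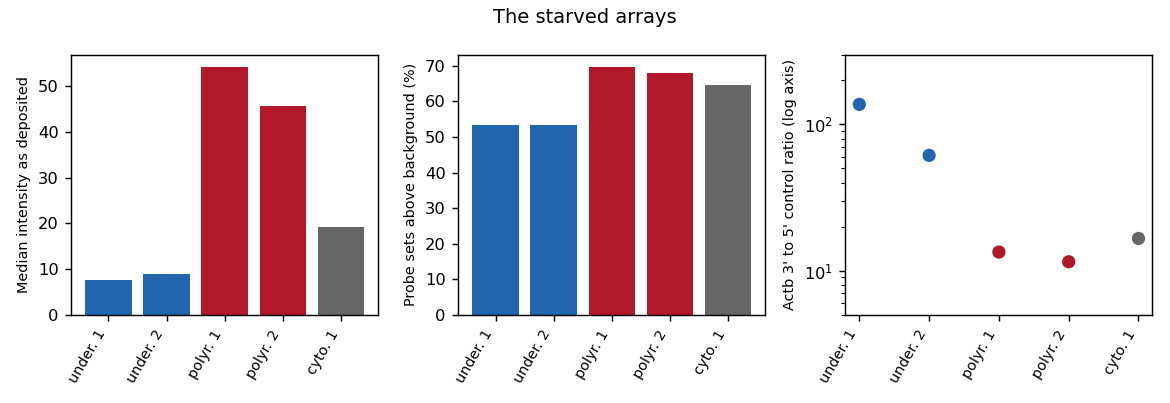
Quality of the 5 starved arrays: median deposited intensity, percent of probe sets above background, and the Actb 3' to 5' control ratio on a log axis, each by array (under., undertranslated; polyr., polyribosome; cyto., cytoplasmic; the number is the replicate). The undertranslated arrays have medians of 7.6 and 8.8 against 54.2 and 45.6 on the polyribosome arrays, and Actb ratios of 137 and 61.4 against 13.4 and 11.5. The 5' Actb signals of the undertranslated arrays (1.5 and 6.6) were not above background, so their ratios have no firm size.

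Levels are given as log2 of the deposited intensity plus 1.5, quantile normalized so that every array has the same distribution. A difference is polyribosome minus undertranslated on that scale, with the standard error (SE) of the limma fit over the 4 arrays. It says where a transcript lies compared with the typical transcript, not which fraction of its molecules carries ribosomes. With the values as deposited, the median probe set lay 2.83 log2 units toward polyribosomes, and 8153 probe sets were called toward polyribosomes against 37 toward undertranslated RNA. All directions below hold relative to the typical probe set, under the quantile scaling.

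Under that scaling 3618 of 9316 probe sets differed between the pools (limma, adjusted p under 0.05; 4604 at an unadjusted p under 0.05). Toward polyribosomes lay 1870 (20.1%) and toward undertranslated RNA 1748 (18.8%), with median differences of 1.94 and -1.68. With 1 probe set per gene, 1472 of 6784 genes (21.7%) lay toward polyribosomes and 1212 (17.9%) toward undertranslated RNA, and the median over all genes was 0.07. These 2 shares are the background for every count of listed genes below. Both same-numbered pairs had the same direction in all 3618 called probe sets and in 79.6% of all tested. A call already rests on the distance between the pools beside the replicate spread. Pools that do not overlap in a called gene are thus a description and add nothing to its call. The share of all tested probe sets without overlap was not counted. Without polyribosome replicate 1 or 2 the total fell to 1626 or 1293 probe sets, and without undertranslated replicate 1 or 2 it was 4581 or 4938. Polyribosome replicates were the closer pair, with a median SD of 0.2 between them against 0.337 in undertranslated RNA.

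**Figure D2:**
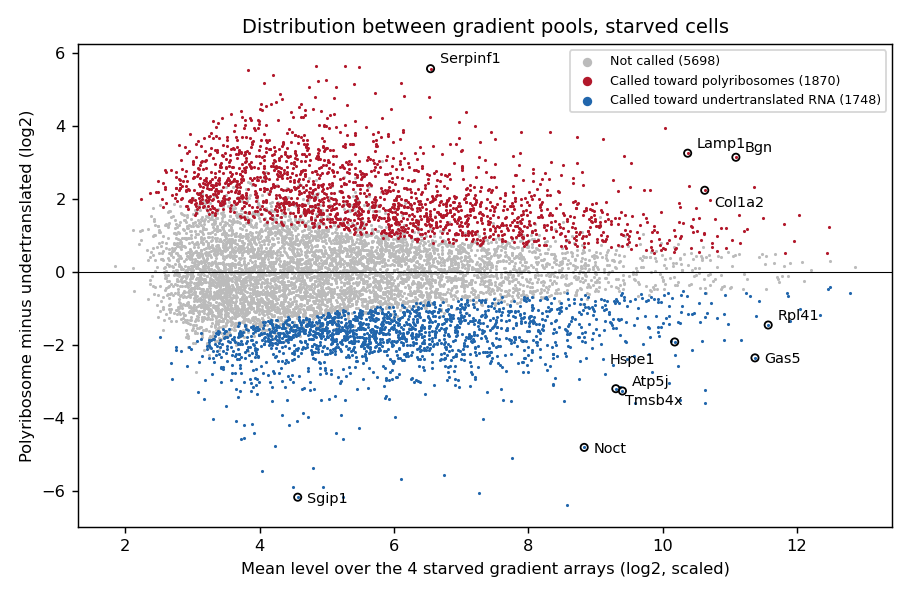
Polyribosome minus undertranslated difference (log2) of 9316 probe sets against their mean scaled level over the 4 starved gradient arrays, coloured by call, with 11 genes circled. The calls lie on both sides in similar numbers (1870 and 1748), and the circled genes lie on both sides of 0.

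The 12 largest differences toward polyribosomes ran from 5.07 to 5.63 log2 units. They belonged to Tspan4, Lclat1, Psmd4, Serpinf1, Pdia6, Samm50, Caprin1, Txndc5, Psmc3, Capns1, Notch1 and Fmod. None of these 12 probe sets rose above background on an undertranslated array, so the differences can be stated only as bounds. Serpinf1, the secreted protein PEDF, had levels of 8.98 and 9.67 in polyribosomes and 3.47 and 4.06 in undertranslated RNA, a difference of at least 35.2-fold. Txndc5, a disulfide isomerase of the endoplasmic reticulum, stood at 8.79 and 8.60 against 3.23 and 3.83, at least 22.7-fold. Psmd4, the ubiquitin receptor of the proteasome, stood at 7.79 and 8.77 against 2.50 and 2.84, at least 17.1-fold. In each of these 3 genes both polyribosome arrays lay far above both undertranslated arrays. The bounds of the other 9 ran from 5.31-fold for Pdia6, another disulfide isomerase, to 14.8-fold for Lclat1, a lysocardiolipin acyltransferase. Tspan4 is a tetraspanin, Samm50 assembles outer membrane proteins of mitochondria, and Fmod is the matrix proteoglycan fibromodulin. Other probe sets of 3 of the 12 genes gave smaller or opposite values. Psmc3 had further probe sets at 2.09 ± 0.29 and 1.49 ± 0.31, Pdia6 at 1.92 ± 0.37 and 0.82 ± 0.72 (adjusted p = 0.393), and Notch1 at -0.96 ± 0.42 (adjusted p = 0.116). The lowest called value of Psmc3 was not called without polyribosome replicate 1 or 2 (adjusted p = 0.0775 and 0.161), nor that of Pdia6 without polyribosome replicate 2 (adjusted p = 0.0996).

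The 12 largest named differences toward undertranslated RNA were those of Sgip1, Noct, Erlin1, Gm15987, Mtm1, Uox, Taf1d, Nmur1, Col1a1, Timm8a2, Immp1l and Ift46. Of these, Sgip1, Erlin1, Gm15987, Uox, Nmur1 and Timm8a2 were above background on no polyribosome array, so their differences are bounds, from 5.79-fold for Uox to 22.7-fold for Sgip1, and their order is not determined. Their levels were low on the starved cytoplasmic array too: 1.49 for Sgip1, 1.77 for Uox, 1.83 for Timm8a2 and 2.19 for Nmur1. Erlin1 and Gm15987 stood there at 3.09 and 3.31. Why these signals were high on the undertranslated arrays alone was not tested. Sgip1, an adaptor of endocytosis, had levels of 7.81 and 7.51 in undertranslated RNA and 1.34 and 1.61 in polyribosomes, where it was not above background, a difference of at least 22.7-fold. Taf1d, a component of the RNA polymerase I initiation factor SL1 whose introns encode small nucleolar RNAs, stood toward undertranslated RNA in all 3 of its probe sets, at -3.98 ± 0.30, -3.51 ± 0.29 and -3.24 ± 0.28. The brightest of them had levels of 12.32 and 12.18 in undertranslated RNA and 9.42 and 8.59 in polyribosomes. Immp1l, a subunit of the inner membrane peptidase of mitochondria, stood at 9.55 and 9.46 against 6.08 and 5.85. For these genes both undertranslated arrays lay well above both polyribosome arrays.

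For 5 of the 12 a second probe set of the same gene showed no such difference. Noct, the deadenylase nocturnin, had levels of 11.27 and 11.21 in undertranslated RNA against 6.03 and 6.82 in polyribosomes by 1 probe set, a difference of -4.82 ± 0.28. Its other probe sets stood at -0.13 ± 0.22 and -0.07 ± 0.35. Mtm1, a phosphoinositide phosphatase, stood at -4.41 ± 0.39 and 0.25 ± 0.32, and the cilium gene Ift46 at -3.53 ± 0.38 and 0.48 ± 0.26. Erlin1, a lipid raft protein of the endoplasmic reticulum, was at least 7.27-fold higher in undertranslated RNA by 1 probe set, which was above background on no polyribosome array, and stood at -0.53 ± 0.51 by the other. Col1a1, a chain of type I collagen, stood at -3.55 ± 0.26 (10.37 and 10.25 against 7.07 and 6.45) by 1 probe set and at 0.33 ± 0.21 (adjusted p = 0.244) by the other. Such disagreement was not rare. Of 1274 genes with several probe sets tested, 77 had probe sets called in both directions, against 157 with at least 2 called and all on 1 side, and the median spread within a gene was 1.28 log2 units. Which probe set of these genes measures the whole mRNA was not tested.

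The kind of probe set also mattered. Probe sets whose name ends in _r_at, for which the manufacturer had to relax its probe selection rules, were called toward undertranslated RNA in 238 of 564 cases (42.2%) and toward polyribosomes in 29 (5.14%), with a median of -1.14. Among ordinary probe sets ending in _at alone, 1195 of 7362 (16.2%) lay toward undertranslated RNA and 1606 (21.8%) toward polyribosomes. For the genes below the probe set with the highest mean level is given, and others are given for genes where they changed the reading.

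Lysosomal genes lay furthest toward polyribosomes of the 32 lists. Of 28 tested, 19 were called toward polyribosomes and 1 toward undertranslated RNA, against 21.7% and 17.9% of all genes, and their median was 1.84 against 0.07 for all genes. Lamp1, a main glycoprotein of the lysosomal membrane, had levels of 11.97 and 12.02 in polyribosomes and 8.80 and 8.70 in undertranslated RNA, a difference of 3.24 ± 0.15 (adjusted p = 0.000673). Lamp2, its relative with a part in autophagy, stood at 10.12 and 10.34 against 6.47 and 6.36, with a second probe set at 1.79 ± 0.27. In both genes the replicates of a pool lay close together and far from the other pool. Ctsa, a carboxypeptidase that also protects lysosomal glycosidases, was at least 9.92-fold higher in polyribosomes, and the cathepsin Ctsz at least 3.56-fold. The exception was Man2b1, an alpha-mannosidase, at -1.71 ± 0.30 by a probe set of the _r_at kind. Without polyribosome replicate 2 neither Ctsz (adjusted p = 0.0568) nor Man2b1 (adjusted p = 0.0548) was called. In the starved cytoplasmic array, the median lysosomal gene stood at the level of the polyribosome arrays (a difference of 0.00) and 1.74 log2 units above the undertranslated arrays. Over all genes the median of polyribosome minus cytoplasmic levels was 0.005 and that of undertranslated minus cytoplasmic levels -0.048. The likeness to the polyribosome arrays is thus not particular to lysosomal genes.

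Genes of the extracellular matrix, a main product of fibroblasts, also lay mostly toward polyribosomes. Of 38 tested, 18 lay toward polyribosomes and 2 toward undertranslated RNA, and 32 had a difference above 0, with a median of 0.79. Bgn, the proteoglycan biglycan, stood at 12.58 and 12.73 in polyribosomes and 9.45 and 9.60 in undertranslated RNA, a difference of 3.13 ± 0.15 (adjusted p = 0.000673), while its second probe set gave -0.43 ± 0.28. Col1a2, the partner chain of Col1a1, stood at 11.67 and 11.81 against 9.40 and 9.62 (2.23 ± 0.16), and its _r_at probe set at -2.04 ± 0.26. Serpinh1, the collagen chaperone of the endoplasmic reticulum, stood at 8.82 and 9.81 against 5.40 and 5.98 (3.62 ± 0.39). The pools did not overlap in any of these 3 genes, and the polyribosome replicates of Serpinh1 lay further apart than those of the other two. Fbln2 (3.01 ± 0.35), Lum (2.65 ± 0.34) and Dcn (2.22 ± 0.20), a fibulin and a pair of small leucine-rich proteoglycans, lay the same way. Both exceptions were central matrix proteins: Col1a1 by the probe set described above, and Fn1, fibronectin, with levels of 9.45 and 9.41 in undertranslated RNA and 7.62 and 7.84 in polyribosomes (-1.70 ± 0.19). Only 1 Fn1 probe set was tested.

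Chaperones of the endoplasmic reticulum, which fold secreted proteins, gave 12 calls toward polyribosomes and 4 toward undertranslated RNA among 26, with a median of 1.00. Hspa5, the chaperone BiP, stood at 9.58 and 10.32 in polyribosomes and 7.85 and 8.27 in undertranslated RNA, a difference of 1.89 ± 0.29. Dnajb11, its J-domain partner, stood at 7.30 and 7.79 against 3.37 and 4.49 (3.61 ± 0.45), with 1 of 2 undertranslated arrays above background. Ddost, a subunit of oligosaccharyltransferase, was at least 3.58-fold higher in polyribosomes, though it was not called without polyribosome replicate 1 or 2 (adjusted p = 0.0544 and 0.0841). Canx, the lectin chaperone calnexin, stood the other way at -1.61 ± 0.26, and at -0.28 ± 0.32 (adjusted p = 0.513) by a second probe set.

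Proteasome subunits gave 20 calls toward polyribosomes and 1 toward undertranslated RNA among 39, with a median of 0.64. Besides Psmd4 and Psmc3, the lid subunit Psmd13 stood at 7.16 and 7.97 in polyribosomes and 2.98 and 4.22 in undertranslated RNA (3.97 ± 0.52), and the catalytic subunit Psmb5 at 7.58 and 8.22 against 4.17 and 4.38 (3.62 ± 0.33). Each was above background on 1 of 2 undertranslated arrays. Psmd9, an assembly chaperone, was the exception at -1.64 ± 0.25, by an _r_at probe set. Among 24 cytosolic and mitochondrial chaperones 11 lay toward polyribosomes and 3 toward undertranslated RNA, with a median of 0.70. The subunits of the mitochondrial chaperonin parted. Hspd1, the large subunit Hsp60, stood at 10.69 and 10.65 in polyribosomes and 8.14 and 8.58 in undertranslated RNA (2.31 ± 0.21). Hspe1, the small co-chaperonin Hsp10, stood at 9.38 and 9.05 against 11.15 and 11.14 (-1.93 ± 0.18). These genes thus lay on opposite sides with no overlap of the arrays in either. A second Hspd1 probe set, of the _r_at kind, stood at 0.84 ± 0.44 (adjusted p = 0.172). Dnajb1, a heat shock J-domain protein, and Cct7, a subunit of the cytosolic chaperonin, stood at 2.85 ± 0.30 and 2.54 ± 0.35. Cct7 was not called in the fit of 8 gradient arrays (adjusted p = 0.0876).

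**Figure D3:**
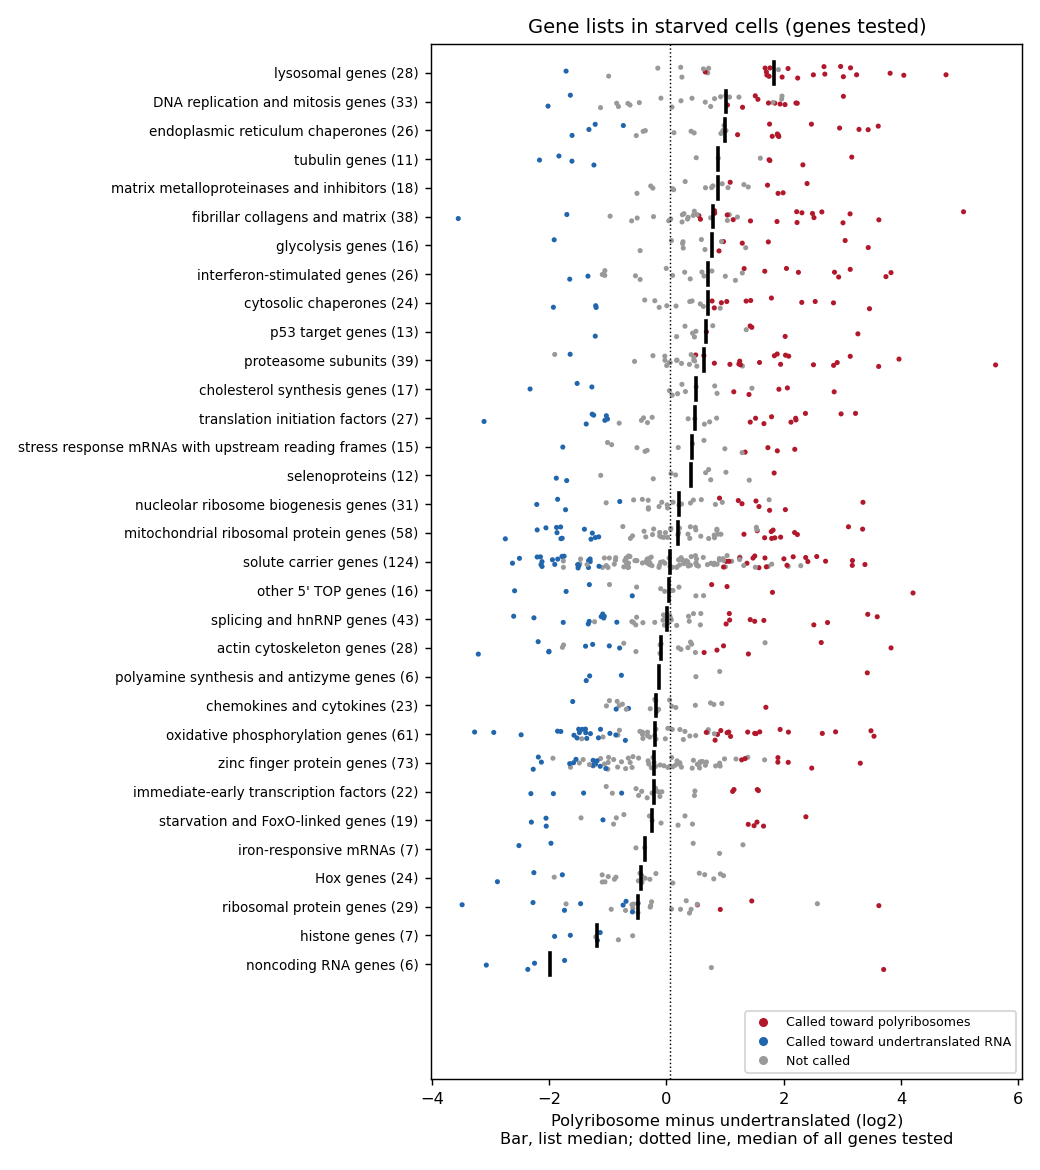
Polyribosome minus undertranslated difference (log2) of each tested member of 32 gene lists in starved cells, ordered by list median (bar), with the number of genes tested in parentheses and the median of all genes as a dotted line. Lysosomal genes have the highest median (1.84) and noncoding RNA genes the lowest (-1.99), and most lists hold calls in both directions.

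For mRNAs of the translation machinery, the transcript start matters, because TOP mRNAs begin with a C followed by a run of pyrimidines. RefSeq starts (GRCm38.p6) were matched for 5464 of the 6784 genes. Of these genes 117 (2.14%) had an annotated start with C and at least 5 pyrimidines. Counted by single starts the share was 1.7% of all 32851 in the table. A gene can have several starts, so these 2 shares are not comparable. Of 25 ribosomal protein genes matched, 6 began so at the annotated base, and of 12 other TOP genes 2 did. Their first 20 bases, read 5' to 3' on the strand of the gene with the run in capitals, are shown because the run is the feature that defines a TOP mRNA.
Rps27 (chr3:90213629-90213648, minus strand): CCTTTCCggcggtgacgacc
Rpl35a (chr16:33056482-33056501, plus strand): CTCTTTCCgccatcttggcg
Rpl38 (chr11:114668580-114668599, plus strand): CTTTCCCCgttctcttcggt
Rps18 (chr17:33955646-33955665, minus strand): CTCTCTTCCacaggaggcct
Rps10 (chr17:27635225-27635244, minus strand): CTTCCTTTCCagcctccgcc
Fau (chr19:6057947-6057966, plus strand): CTTCCTCTTTCTTgactcca
Eif3f (chr7:108934415-108934434, plus strand): CTCTCTTTCTCggcaagatg
Nap1l1 (chr10:111473227-111473246, plus strand): CTTTTTTagcgccatctgct

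Genes with such starts at the annotated base were called in shares near those of the rest. This grouping cannot show whether TOP mRNAs were set apart. It missed most of the listed TOP genes, with the run in 6 of 25 and 2 of 12, and 109 of the 117 lay outside both lists. Of the 117, 24 (20.5%) lay toward polyribosomes and 22 (18.8%) toward undertranslated RNA, with a median of 0.20, against 21.6%, 17.2% and 0.10 among 5347 genes without the run. The 8 genes shown went in both directions. Rps27, a protein of the small subunit, had levels of 8.19 and 7.67 in undertranslated RNA and 5.65 and 5.67 in polyribosomes (-2.28 ± 0.28), and Eif3f, a subunit of initiation factor 3, stood at 5.27 and 4.65 against 3.56 and 2.94 (-1.71 ± 0.48, adjusted p = 0.0331). Rps10 stood the other way, at 10.47 and 10.97 in polyribosomes and 9.62 and 9.99 in undertranslated RNA (0.92 ± 0.23, adjusted p = 0.0233), as did the histone chaperone Nap1l1 (0.77 ± 0.24, adjusted p = 0.0449, and 1.56 ± 0.36 by a second probe set). The calls of Eif3f and of both Nap1l1 probe sets were lost when polyribosome replicate 1 or 2 was left out (adjusted p from 0.104 to 0.292), and that of Rps10 was lost without polyribosome replicate 2 (adjusted p = 0.0648) or undertranslated replicate 1 (adjusted p = 0.0939). Rps18 (0.42 ± 0.21, but -0.60 with arrays centred on their median), Rpl35a (-0.25 ± 0.73), Rpl38 (-0.56 ± 0.52) and Fau (-0.57 ± 0.55) did not pass, and Rpl35a was above background on none of the 4 arrays. Fau, Rpl35a, Rpl38 and Rps18 are named for their starts, after their values were seen.

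Of 29 ribosomal protein genes tested, 4 lay toward polyribosomes and 8 toward undertranslated RNA, with a median of -0.48. Rpl8 stood at 10.72 and 11.12 in polyribosomes and 6.86 and 7.73 in undertranslated RNA (3.62 ± 0.32), and the stalk protein Rplp0 at 12.11 and 12.35 against 10.66 and 10.89 (1.46 ± 0.16, but 0.52 and not called with arrays centred on their median, adjusted p = 0.0748). Rpl41, which encodes a very short peptide of the large subunit, stood at 12.29 and 12.32 in undertranslated RNA against 10.96 and 10.72 (-1.46 ± 0.15). The arrays of the pools did not overlap in any of these 3 genes. Rpl32 was at least 3.39-fold higher in undertranslated RNA by an _r_at probe set at low levels (4.77 and 5.06 against 1.65 and 1.21). Rpl19 stood at 0.53 ± 0.16 (adjusted p = 0.0385) by its brighter probe set and at -2.76 ± 0.34 by the other. The first Rpl19 call was lost when any 1 of the 4 arrays was left out (adjusted p from 0.0566 to 0.185), and the Rpl32 call without polyribosome replicate 2 (adjusted p = 0.0548). The family median was -0.58 in the replicate 1 pair and -0.11 in the replicate 2 pair, and after serum it was 0.05. In units relative to all genes it kept its sign in each of 17 alternative analyses, from -0.84 to -0.09. Not all of these could move it. The variance trend, the replicate block, the 8-array fit and 1 probe set per gene leave this median as it is. Values as deposited, median centring and hybridization control scaling differ by a constant per array, so they give the same relative median.

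Of 16 other TOP genes, 4 lay each way. Eef2, the elongation factor that moves ribosomes along mRNA, stood at 8.27 and 8.99 in polyribosomes and 6.86 and 6.78 in undertranslated RNA (1.81 ± 0.29). Eef1d, a subunit of the exchange factor of elongation, was at least 7.54-fold higher in polyribosomes, and Pabpc1, the poly(A)-binding protein, stood at means of 11.14 and 10.10 in the pools (1.03 ± 0.20; adjusted p = 0.0638 without the variance trend). Naca, a chaperone of nascent chains, lay the other way, at 9.66 and 9.59 in undertranslated RNA against 6.66 and 7.41 (-2.59 ± 0.28), and so did Tpt1, at 12.18 and 12.11 against 11.47 and 11.65 (-0.58 ± 0.14, adjusted p = 0.0194). The Tpt1 call was lost without undertranslated replicate 1 or 2 (adjusted p = 0.0909 and 0.0641). Eef1a1, the factor that brings tRNA to the ribosome, was among the brightest on every array, at 12.92 on both polyribosome arrays and 12.81 on both undertranslated arrays, and did not pass (0.11 ± 0.11, adjusted p = 0.468). Quantile scaling sets a level by its rank on the array, so for a gene this bright 0.11 is a gap between top ranks. Hmgn1 likewise took 12.92 on both undertranslated arrays. With arrays centred on their median Eef1a1 stood at -2.20, called toward undertranslated RNA (limma, adjusted p = 5.5e-05).

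Initiation factors were split, with 10 of 27 toward polyribosomes and 7 toward undertranslated RNA and a median of 0.48. Relative to all genes that median turned to -0.10 among probe sets above background on all arrays. Eif2b1, a subunit of the exchange factor for eIF2, stood at 7.74 and 7.56 in polyribosomes and 5.20 and 5.36 in undertranslated RNA (2.37 ± 0.27). Eif1ax, which scans for the start codon with the small subunit, stood at 9.99 and 9.84 in undertranslated RNA and 6.83 and 6.78 in polyribosomes (-3.11 ± 0.19, adjusted p = 0.00096). Eif3m, a subunit of eIF3, stood at -1.27 ± 0.18. The pools did not overlap in any of these genes.

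Upstream reading frames hold ribosomes away from the main reading frame of some stress response mRNAs. Of 15 listed stress response genes tested, 4 lay toward polyribosomes and 1 toward undertranslated RNA, and the median was 0.44. Whether each member has such a frame was not checked here. Among the 4 was Hspa5, counted above with the chaperones. Atf4, the activator best known for this mode of control, stood at 8.24 and 8.70 in polyribosomes and 8.75 and 9.19 in undertranslated RNA and did not pass (-0.50 ± 0.25, adjusted p = 0.159). Its relative Atf5 was at least 3.21-fold higher in polyribosomes. Ddit3, the factor CHOP, was the single call toward undertranslated RNA, at 7.82 and 8.67 against 6.24 and 6.71 (-1.77 ± 0.35). Asns, asparagine synthetase, and Eprs, a tRNA synthetase, stood at 1.73 ± 0.21 and 1.34 ± 0.31. Atf5 was not called without polyribosome replicate 1 or 2 (adjusted p = 0.0921 and 0.197), nor Eprs without polyribosome replicate 2 (adjusted p = 0.116).

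Iron-responsive elements bind regulatory proteins that block the start of translation when near the 5' end, as in ferritin mRNA, and protect the mRNA when in the 3' end, as in that of the transferrin receptor. Of 7 genes tested none lay toward polyribosomes and 2 lay toward undertranslated RNA. Tfrc, the transferrin receptor, stood at 8.92 and 8.69 in undertranslated RNA and 6.25 and 6.33 in polyribosomes (-2.52 ± 0.22), and Epas1, an oxygen-regulated factor, at -1.97 ± 0.53 (adjusted p = 0.0285). Fth1, the ferritin heavy chain, stood at 9.77 and 10.28 in polyribosomes and 10.34 and 10.46 in undertranslated RNA (-0.37 ± 0.21, adjusted p = 0.206), and its _r_at probe set at -2.38 ± 0.21. In polyamine synthesis, Odc1, the first enzyme of the pathway, stood at -0.77 ± 0.24 (adjusted p = 0.0466) and Sat1, which starts polyamine breakdown, at 10.03 and 9.81 in undertranslated RNA against 8.36 and 8.86 (-1.31 ± 0.23). Oaz2, an antizyme that marks Odc1 for destruction, was at least 2.29-fold higher in polyribosomes. The Odc1 difference stood at 0.09 under median centring and was not called there, nor without polyribosome replicate 1 (adjusted p = 0.129), polyribosome replicate 2 (0.166) or undertranslated replicate 2 (0.147). Epas1 was not called without polyribosome replicate 1 or 2 (adjusted p = 0.258 and 0.12).

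Immediate-early transcription factors, which are transcribed within minutes of a stimulus, gave 4 calls each way among 22, with a median of -0.22. Jun stood at 10.39 and 9.51 in polyribosomes and 8.53 and 8.23 in undertranslated RNA (1.57 ± 0.31), Ier2 at 1.55 ± 0.31 and the orphan nuclear receptor Nr4a1 at 1.15 ± 0.21. Jund, a relative of Jun, stood at 9.93 on both undertranslated arrays against 8.22 and 8.81 (-1.41 ± 0.24), and Klf10, a zinc finger repressor, at 9.89 and 9.72 against 7.98 and 7.77 (-1.93 ± 0.19). These genes were named as called members with the largest differences each way, so their contrast shows no trait of the family. Of the 22 genes 14 were not called, against 4100 of all 6784 genes. Fos stood at 10.51 and 10.84 in polyribosomes and 11.28 and 10.90 in undertranslated RNA (-0.42 ± 0.20, adjusted p = 0.138), and a second probe set, above background on no polyribosome array, was at least 2.95-fold higher in undertranslated RNA. Egr1 (0.49 ± 0.24, adjusted p = 0.156) and Myc (-0.13 ± 0.39, adjusted p = 0.815) did not pass. Junb stood at -0.92 ± 0.33 (adjusted p = 0.0692) and did not pass, and its second probe set, above background on no undertranslated array, was at least 1.48-fold higher in polyribosomes (adjusted p = 0.0335). The call of the second Junb probe set was lost without polyribosome replicate 1 or 2 (adjusted p = 0.197 and 0.318), as was that of the second Fos probe set (adjusted p = 0.17 and 0.241). Ptgs2, the inducible cyclooxygenase, stood at 1.24 ± 0.23. Among 23 chemokines and cytokines 1 lay toward polyribosomes, the growth factor Csf1 at 1.70 ± 0.20, and 3 lay toward undertranslated RNA, among them Ccl2, a chemokine for monocytes, at 10.67 and 10.52 against 10.01 and 9.89 (-0.65 ± 0.16, adjusted p = 0.022). Ccl2 was not called without undertranslated replicate 1 or 2 (adjusted p = 0.124 and 0.0612).

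Genes of oxidative phosphorylation were divided: 17 of 61 lay toward polyribosomes and 19 toward undertranslated RNA, with a median of -0.20. Relative to all genes that median turned to 0.19 as the highest of 17 alternatives. The sign changed under values as deposited, median centring and hybridization control scaling, which give the same relative median. Atp5j, a coupling factor subunit of ATP synthase, stood at 11.04 and 11.03 in undertranslated RNA and 7.85 and 7.68 in polyribosomes (-3.27 ± 0.17, adjusted p = 0.000824), and Uqcrh, the hinge protein of complex III, at 10.12 and 10.34 against 7.41 and 7.16 (-2.95 ± 0.20). Cyc1, the cytochrome c1 of the same complex, stood the other way by its brighter probe set, at 9.57 and 10.07 in polyribosomes and 7.10 and 7.22 in undertranslated RNA (2.66 ± 0.23), and at -1.93 ± 0.26 by an _r_at probe set. Ndufb8, a subunit of complex I, was at least 4.13-fold higher in polyribosomes, and was not called without polyribosome replicate 2 (adjusted p = 0.0538). Uqcrh and the brighter Cyc1 probe set, of the same complex, thus lay on opposite sides, while the _r_at probe set of Cyc1 lay on the side of Uqcrh.

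Genes of the cytoskeleton also lay on both sides. Among 28 actin cytoskeleton genes 6 lay toward polyribosomes and 8 toward undertranslated RNA, against 21.7% and 17.9% of all genes. Tmsb4x, a thymosin that binds actin monomers, stood at 10.86 and 10.96 in undertranslated RNA and 7.54 and 7.86 in polyribosomes (-3.21 ± 0.19), and its relative Tmsb10 at 6.99 and 6.98 against 4.73 and 4.86 (-2.19 ± 0.29). Actn4, an actin crosslinker, stood at 7.43 and 8.25 in polyribosomes and 5.20 on both undertranslated arrays (2.64 ± 0.34), and Actg1, the gamma actin of nonmuscle cells, at 0.97 ± 0.18 (adjusted p = 0.0626 without the variance trend). Actb, beta actin, did not pass by its brighter probe set (-0.09 ± 0.23, adjusted p = 0.784), whose direction turned to 0.85 under median centring, and stood at -3.36 ± 0.55 by the other. Of 11 tubulin genes 4 were called each way. Tuba1a stood at 12.42 and 12.62 in polyribosomes and 10.21 and 10.18 in undertranslated RNA (2.33 ± 0.14) and Tuba1c at 3.16 ± 0.27, while the minor isotype Tuba8 stood at -2.16 ± 0.27. Tubulin genes resemble each other closely, and a probe set may take up transcripts of several members.

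The chromatin genes tested stood below 0, while splicing genes were called evenly on both sides. Of 7 histone and high mobility group genes, 4 lay toward undertranslated RNA, none toward polyribosomes, and all 7 stood below 0, with a median of -1.18. H2az2 and H2az1, variants of histone H2A, stood at 9.79 and 9.70 against 7.77 and 7.91 (-1.91 ± 0.18) and at 8.78 and 8.89 against 7.24 and 7.15 (-1.64 ± 0.20). Hmgn1, a nucleosome-binding protein, stood at 12.92 on both undertranslated arrays and 11.91 and 11.58 in polyribosomes (-1.18 ± 0.15). Of 43 splicing genes 10 were called each way, against 21.7% and 17.9% of all genes, with a median of 0.01 against 0.07 for all genes. The splicing factor Srsf3, the small spliceosomal protein Snrpg and the kinase Clk1 stood at -2.26 ± 0.19, -2.61 ± 0.22 and -1.76 ± 0.19, and U2af1, which recognizes the 3' splice site, at 2.51 ± 0.30.

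Noncoding RNAs had the lowest median of the lists, -1.99 over 6 genes tested, with 4 toward undertranslated RNA and 1 toward polyribosomes. Among all genes that RefSeq types as long noncoding, 14 of 37 (37.8%) lay toward undertranslated RNA and 2 (5.41%) toward polyribosomes, with a median of -1.10, against 17.5% and 21.9% of 6682 protein-coding genes. Gas5, a growth arrest transcript that hosts small nucleolar RNAs, stood at 12.49 and 12.62 in undertranslated RNA and 10.34 and 10.04 in polyribosomes (-2.36 ± 0.16, adjusted p = 0.000988). The other host transcripts Snhg6 (means of 9.90 and 6.83), Snhg5 (8.17 and 8.16 against 5.99 and 5.84) and Snhg1 (10.32 and 10.14 against 8.48 and 8.51) stood at -3.07 ± 0.23, -2.25 ± 0.24 and -1.74 ± 0.17. All 4 were above background on both polyribosome arrays too, which does not show that ribosomes were on them. Meg3, an imprinted long noncoding RNA, was the exception: it stood at 7.04 and 5.81 in polyribosomes and 2.61 and 2.84 in undertranslated RNA, at least 4.72-fold higher, and its second probe set at -0.57 ± 0.42 (adjusted p = 0.32). The first Meg3 call was lost without polyribosome replicate 1 (adjusted p = 0.0563). Heavy ribonucleoprotein particles can sediment with polyribosomes, and their part here was not tested.

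**Figure D4:**
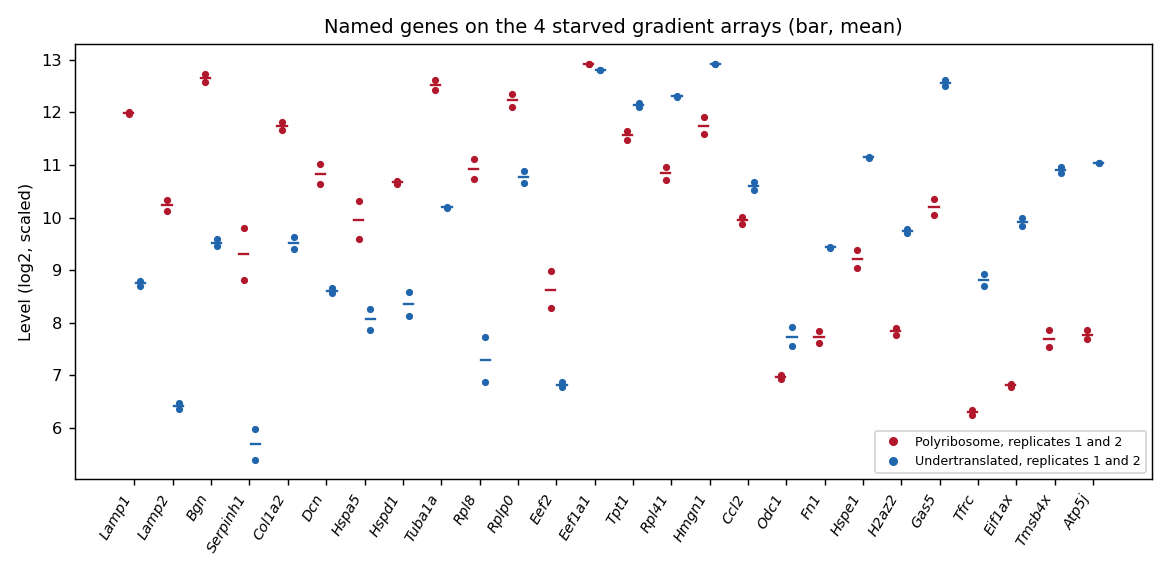
Scaled log2 levels of 26 named genes on the 2 polyribosome and 2 undertranslated arrays of starved cells, with the mean of each pool as a bar and the probe set of highest mean level for each gene. The pools are separated in the called genes from Lamp1 (11.97 and 12.02 against 8.80 and 8.70) to Atp5j (7.85 and 7.68 against 11.04 and 11.03). Eef1a1 lies within 0.11 log2 units under this scaling, but at -2.2 with arrays centred on their median.

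Among genes linked to starvation and FoxO factors, 5 of 19 lay toward polyribosomes and 4 toward undertranslated RNA. Cdkn1c, an inhibitor of cell division, stood at 8.36 and 8.27 in polyribosomes and 6.40 and 5.47 in undertranslated RNA (2.38 ± 0.35). Cited2, a transcriptional coregulator, stood at 10.06 and 9.37 in undertranslated RNA and 7.35 and 7.47 in polyribosomes (-2.30 ± 0.27). Of 13 p53 target genes 5 lay toward polyribosomes and 1 toward undertranslated RNA, with a median of 0.68. Plk2, a kinase of the p53 response, stood at 2.02 ± 0.35, and Mdm2, the ligase that degrades p53, was the exception at 10.29 and 10.38 in undertranslated RNA against 9.24 and 9.01 (-1.21 ± 0.17).

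Fibroblast markers were present as the labels have it, with 12 of 14 tested above background on all 4 arrays, against 4197 of all 6784 genes. They were split between the pools, with 5 toward polyribosomes, such as the growth factor receptor Pdgfrb (at least 3.79-fold), and 4 toward undertranslated RNA. Of 11 macrophage markers tested, 5 were above background on all 4 arrays. Lyz2, lysozyme, stood at 5.66 and 5.07 in polyribosomes and was not above background in undertranslated RNA (at least 2.26-fold), the macrophage receptor Adgre1 was called the same way (adjusted p = 0.037) with undertranslated levels not above background, and Cd14 stood at -0.84 ± 0.25 (adjusted p = 0.039). Of 6 endothelial markers Pecam1 was the single call, at -1.78 ± 0.36. Of 6 epithelial markers Krt5 and Cdh1 were called toward undertranslated RNA (adjusted p = 0.0377 and 0.0428), and all 6 stood below 0. Lyz2 was not called without polyribosome replicate 1 (adjusted p = 0.0584), and Pdgfrb, Adgre1, Cd14, Pecam1, Krt5 and Cdh1 were not called when polyribosome replicate 1 or 2 was left out (adjusted p from 0.0525 to 0.309). With arrays centred on their median, Adgre1, Cd14 and Cdh1 were not called (adjusted p = 0.53, 0.646 and 0.0575). Summed over the markers tested, linear scaled levels were 9800 and 12120 in polyribosomes and 6706 and 6280 in undertranslated RNA for fibroblasts, and 468.2 and 475.2 against 486.3 and 432 for macrophages. The endothelial sums were 223.1 and 314 against 152.6 and 243.5, and the epithelial sums 72.08 and 75.98 against 146 and 152.3. The erythroid sums were 46.23 and 40.55 against 124.8 and 97.46, with 2 of 4 markers called toward undertranslated RNA and a median of -1.44, and the skeletal muscle sums 221.3 and 224.4 against 234 and 245.6. The macrophage and endothelial sums overlapped between the pools, and the epithelial, erythroid and skeletal muscle sums did not, each being higher in undertranslated RNA. Above background on all 4 arrays were 2 of 6 endothelial, 2 of 6 epithelial, 1 of 4 erythroid and 4 of 6 skeletal muscle markers, beside the 4197 of all 6784 genes. With 2 arrays per pool, sums that do not overlap are a description and not a test. The part of other cells in the lists above was not tested.

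The serum-treated cells were compared in the same way. Across 9316 probe sets the starved and serum-treated differences correlated at r = 0.83, a description over probe sets that share scaling. Of the starved calls, 1835 of 1870 (98.1%) toward polyribosomes and 1682 of 1748 (96.2%) toward undertranslated RNA had the same direction after serum, against 73% of the probe sets not called. Their median differences were 1.94 and 2.19 toward polyribosomes and -1.68 and -1.75 toward undertranslated RNA. Gas5 stood at -2.48 after serum, Lamp1 at 2.61, Bgn at 3.21, Atp5j at -3.08 and Tfrc at -3.16. The median of lysosomal genes was 2.07 and that of noncoding RNAs -1.84. Serpinh1 went from 3.62 to 7.19, the largest shift among the genes named, and that shift did not pass (3.57 ± 0.73, adjusted p = 0.442).

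The test of the difference itself, serum-treated minus starved loading, called 0 of 9316 probe sets in the limma fit of the 8 gradient arrays (0%; 720 at an unadjusted p under 0.05, smallest adjusted p = 0.442). The count was 902 without serum undertranslated replicate 2 and 1 without replicate 1. So no gene is named here as loaded differently in the 2 states, and their likeness is not shown by it either. The starved contrast within this 8-array fit called 2632 probe sets, 2615 of them among the 3618.

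**Figure D5:**
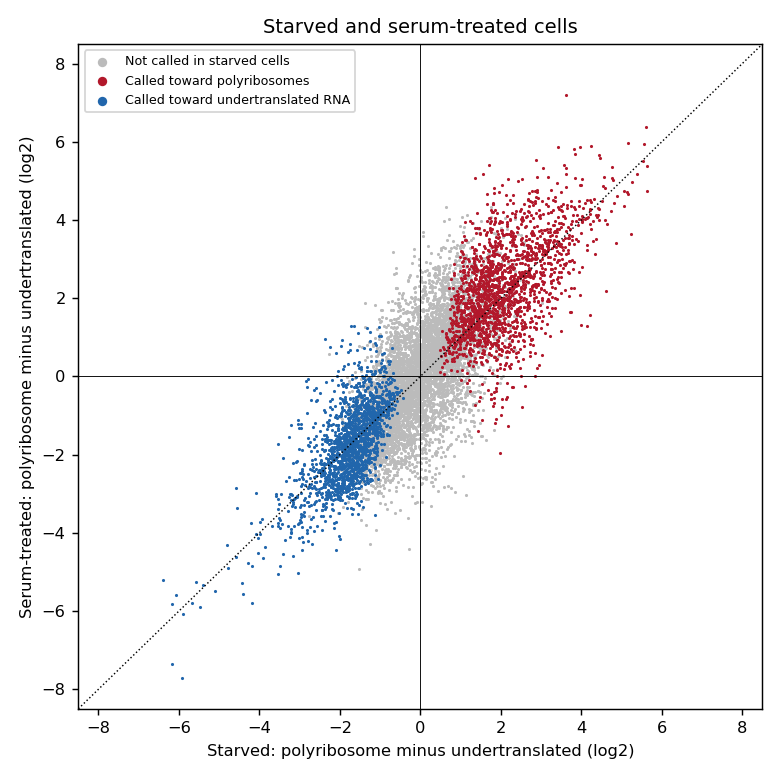
Polyribosome minus undertranslated difference (log2) of 9316 probe sets in starved cells (horizontal) and serum-treated cells (vertical), coloured by the call in starved cells, with the line of equality dotted. Of the starved calls, 98.1% toward polyribosomes and 96.2% toward undertranslated RNA lie on the same side of 0 after serum.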

How the data were processed

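RNA was amplified linearly and labelled with biotin for Affymetrix arrays, per the labels' protocols. The authors deposited linear intensity values, with no summary method or scaling stated in the sources used here. Of 12488 probe sets 66 are controls. In the platform annotation 10833 of the rest carry 1 gene symbol, 396 carry several and 1193 carry none, and only the first kind was named. No such probe set was found for Atf1, so the genotype was not checked on the arrays.

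The deposited intensities were put on the log2 scale after adding 1.5, their 10th percentile, and quantile normalized over the 10 arrays, since array medians differed by 2.953 log2 units. The added constant understates folds of dim probe sets, and quantile normalization can overstate folds on dim arrays. The 9316 probe sets with mean levels above the 25th percentile were tested with limma 3.58.1 in R 4.3.3 (lmFit, eBayes with a trend, two-sided, Benjamini-Hochberg adjustment, threshold 0.05). The starved comparison used the 4 starved gradient arrays, and the comparison of serum states all 8 gradient arrays. Gene lists were described by counts and medians with 1 probe set per gene, that of highest mean level. Members, lists and tests were chosen with earlier results of these data known.

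Named genes are the 12 largest differences each way (called, 1 symbol, above background on both arrays of the brighter pool, both pairs alike), up to 4 called members per list and direction, and a standing set such as Fos, Atf4 and Fth1. The genes with printed starts, and further probe sets of named genes, were added after their values were seen. A bound, written "at least", applies where no array of the dimmer pool was above background. There the dimmer pool is taken at the lowest level that counts as above background, or at its own level where higher.

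Replicate 2 differs from replicate 1 by 4-thiouridine in the medium, per the labels' protocols. Same-numbered arrays deviated from their pool means with a correlation of 0.0336 over probe sets. Alternatives were a replicate block, other scalings, pseudocounts of 1 and 4.2, other filters, no trend, 1 probe set per gene, the 8-array fit and leaving out each array. The scripts were tested on simulated data. Groupings by protein length and hydrophobic stretches were planned but not run, as protein sequences were not used here. The number of arrays limits precision.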

Additional observations from a re-analysis of the deposited data

How the results depend on the processing

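Scaling moved the balance of calls most. With values as deposited 8190 probe sets were called, 8153 toward polyribosomes and 37 toward undertranslated RNA. With hybridization control scaling there were 8754, of which 8730 and 24. These scalings put the median probe set 2.83 and 3.33 log2 units toward polyribosomes. With arrays centred on their median, 3505 of 4962 calls (70.6%) lay toward polyribosomes, and 2 of 67 calls toward undertranslated RNA among the genes discussed stood above 0, against 49 of 67 as deposited. Among probe sets above background on all arrays of the fit 1095 lay toward polyribosomes and 1864 toward undertranslated RNA. Relative to the median shift, 4 of the genes discussed turned in these 3 scalings, Actb to 0.851, Odc1 to 0.0939, Eef1a1 to -2.2 and Rps18 to -0.602. Leaving out 1 array gave 1293 to 4938 calls, 566 to 2542 toward polyribosomes and 727 to 2396 toward undertranslated RNA, the lowest of each without polyribosome replicate 2 and the highest without undertranslated replicate 2. The cause was not tested. The comparison of serum states gave 0 to 902 calls when 1 array was left out, with 902 without serum undertranslated replicate 2, and 0 in the other planned settings. The replicate block gave 4035 calls, 3536 of them among the 3618, and of the named genes Eif5a lost its call with the block (adjusted p = 0.062). Relative to all genes, the medians of the other 5' TOP, initiation factor, polyamine, immediate-early, oxidative phosphorylation, actin, splicing, nucleolar, solute carrier, mitochondrial ribosomal, FoxO and selenoprotein lists changed sign in at least 1 setting, as did those of the fibroblast, macrophage, endothelial and skeletal muscle markers. Counts stayed within 1.5 times under both pseudocounts, no filter, the filter at the 50th percentile, no trend, quantile scaling of the 4 arrays alone and the 8-array fit.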

Other observations

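Several gene groups not described above also held calls. Among 33 genes of DNA replication and mitosis 11 lay toward polyribosomes and 2 toward undertranslated RNA, with a median of 1.01 against 0.07 for all genes. One of them was Tk1, the thymidine kinase of dividing cells, at least 3.31-fold higher in polyribosomes but not called without polyribosome replicate 1 or 2 (adjusted p = 0.114 and 0.112). Of 16 glycolysis genes 6 lay toward polyribosomes and 1 toward undertranslated RNA, with the mutase Pgam1 at 3.05 ± 0.28. Of 26 interferon-stimulated genes 9 and 2 were called, with the GTPase Gbp2 at least 4.64-fold higher in polyribosomes, a call lost without polyribosome replicate 2 (adjusted p = 0.0538). Of 18 matrix metalloproteinases and inhibitors 5 lay toward polyribosomes and none toward undertranslated RNA. Cholesterol synthesis genes gave 5 and 3 calls among 17, with the synthase Fdps at 2.86 ± 0.37 and the dehydrogenase Nsdhl at -2.33 ± 0.26.

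Other large families are given beside the 21.7% and 17.9% of all genes called toward polyribosomes and toward undertranslated RNA. Mitochondrial ribosomal proteins gave 12 calls toward polyribosomes and 13 toward undertranslated RNA among 58, with Mrpl51 at -2.75 ± 0.21. Solute carriers gave 20 each way among 124, zinc finger proteins 7 and 12 among 73, and nucleolar genes 8 and 4 among 31. Nucleolin, Ncl, stood at 1.76 ± 0.24 and was not called in the 8-array fit (adjusted p = 0.231). Of 24 Hox genes, 3 lay toward undertranslated RNA and none toward polyribosomes. Of 12 selenoproteins 1 lay toward polyribosomes and 2 toward undertranslated RNA, Selenos at -1.88 ± 0.21 and the glutathione peroxidase Gpx1 at -1.70 ± 0.25.

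Probe sets without a single gene symbol made up 11.2% of those tested, 6.95% of the calls toward polyribosomes and 18.8% of the calls toward undertranslated RNA. Of the 25 largest differences toward undertranslated RNA 19 (76%) belonged to such probe sets, against 2 (8%) of the 25 largest toward polyribosomes. The largest of these stood at 11.74 and 11.80 in undertranslated RNA and 5.05 and 5.70 in polyribosomes, a difference of -6.39 ± 0.26 (adjusted p = 0.000491), and at -5.21 after serum. What these probe sets measure was not determined.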
